A study of Mus musculus with 23 samples.

Results

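The genes described here are 10 that act as outputs and brakes of growth factor signalling through the kinase ERK. They were chosen by name, as genes known from the pathway, with earlier results of these data known. All 10 had a row among the 35385 gene symbols of the count tables and the 35383 of the table of sorted cells. They are the Sprouty genes Spry1, Spry2 and Spry4 and their relative Spred1, the phosphatase genes Dusp4 and Dusp6, the ETS factor genes Etv1, Etv4 and Etv5, and the zinc finger gene Egr1.

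Growth factors such as FGF2 and PDGFA bind receptor tyrosine kinases, which switch on RAS, RAF, MEK and finally ERK. ERK in turn raises transcription of ETS factors and of proteins that damp the same pathway, so that these messenger RNAs are widely read as an output of ERK activity. In the oligodendrocyte lineage, PDGFA and FGF2 keep progenitors dividing, and their withdrawal lets the cells differentiate.

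Poly(A) RNA was measured in 23 libraries of mouse cells in 8 groups, all grown from oligodendrocyte progenitor cells (OPCs) made from epiblast stem cells. In the SOX6 experiment, cells carried SOX6 guide 1, SOX6 guide 2 or a non-targeting guide (control) in a lentiviral CRISPR vector, after 96 hours of puromycin selection (500 ng/mL), which control cells received too. Oligodendrocytes (OLs) had 3 libraries with guide 1, 3 with guide 2 and 3 with the control guide. OPCs had 2 libraries with guide 1, 3 with guide 2 and 3 with the control guide. For 60 hours, OLs were in permissive medium, with noggin and IGF1 at 100 ng/mL each, cyclic AMP at 10 µM and NT3 at 10 ng/mL, and OPCs in growth medium with FGF2 and PDGFA at 20 ng/mL each. A second set held 3 libraries of O1-positive OLs and 3 of OPCs, both purified on magnetic beads. In this set the OLs came from permissive medium that also had the thyroid hormone T3 at 40 ng/mL. Its OPCs came from medium with FGF2 and PDGFA at 20 ng/mL each. The OPCs had earlier been sorted for CD140a and NG2. The labels name EpiSC5 and 129O1 as source lines, of strains 129SvEv and 129S1/SvImJ, without tying each library to a line. Targeted and control OPCs came from 1 original batch of OPCs, and no label states whether the libraries are separate cultures. The spread behind each p-value is that between libraries and may be technical. The libraries of a group are called A, B and C as in the deposited tables.

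Total counts ran from 13124580 to 18551822 per library in the SOX6 experiment, and the depth of the sorted libraries is unknown. Sox6 RNA was lower after targeting by 0.81 on the log2 scale in OLs (adjusted p = 0.0095) and by 1.32 in OPCs (adjusted p = 0.00147, both by edgeR). OL library B of guide 1 stood apart. The median absolute log2 difference of its genes from the mean of the other libraries of its group was 0.412. In the other 8 OL libraries it was 0.0785 to 0.231. The Spearman correlation of the signed difference with transcript length was -0.58 in that library and 0.488 and 0.545 in OL libraries A and C of guide 1. In control OPC libraries A and C it was -0.394 and 0.402. Each library is part of the reference of the others in its group. The values of guide 1 OL libraries A and C therefore do not by themselves show a length bias of their own. The number of members called over both guides in OLs is therefore given with and without guide 1 OL library B. Other pathway genes, marker lists and the count for guide 1 alone are given only with that library. As defining markers, Mbp averaged 16288 TPM in sorted OLs, while Mog, a marker of mature OLs, was at 0 in the unsorted OLs of guide 2 and of the control guide and not in those of guide 1. The word OL is used for the unsorted cells as the labels do.

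The genes lie on 9 chromosomes of the GRCm38 build (GENCODE M21 annotation): Etv1 at chr12:38779380-38870484 (+), Etv4 at chr11:101769742-101785371 (-), Etv5 at chr16:22381309-22439719 (-), Spry1 at chr3:37639947-37644598 (+), Spry2 at chr14:105891947-105896819 (-), Spry4 at chr18:38586247-38601415 (-), Spred1 at chr2:117121374-117182279 (+), Dusp4 at chr8:34807297-34819894 (+), Dusp6 at chr10:99263231-99267489 (+) and Egr1 at chr18:34859823-34864984 (+). Spry1 shares 710 of its 2906 exonic bases with a predicted gene on the opposite strand, Gm42922. Without strand information, reads of the 2 genes cannot be told apart over those bases.

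The 10 genes covered a wide range of levels. Levels are compared between genes in TPM, a unit that corrects for transcript length, and the tables of TPM were made separately for each stage and for the sorted cells. In control OPCs, Etv4 (170.4 ± 19.6 TPM), Dusp6 (169 ± 6.91 TPM), Spry2 (134 ± 2.02 TPM) and Spry1 (122 ± 4.20 TPM) stood highest (SD, n = 3). Etv1 (59.8 ± 11.5 TPM), Spry4 (36.7 ± 3.11 TPM) and Egr1 (10.4 ± 1.80 TPM) followed. The ranges of Etv4 and Dusp6 overlapped, so their order is not fixed by these libraries. Dusp4 (4.30 ± 0.897 TPM), Spred1 (1.75 ± 0.828 TPM) and Etv5 (1.44 ± 0.447 TPM) were low. Etv5 had estimated counts of 2.70 to 45.1 in the OPC libraries and of 0 to 40.2 in the OL libraries, with 0 in library B of all 3 OL groups, and Spred1 had 7.68 to 47.8, so that changes of these 2 genes could be measured only coarsely.

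**Figure D1:**
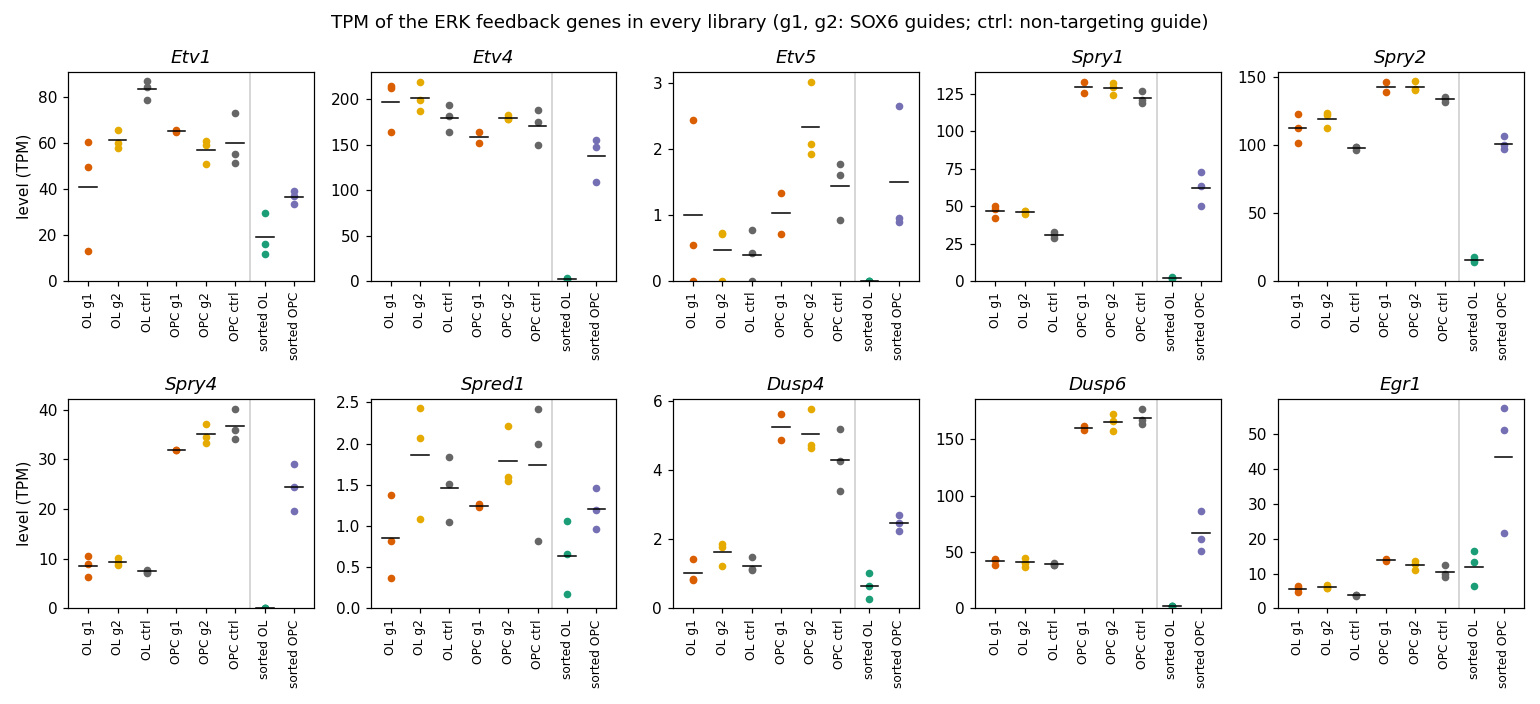
Level in TPM (vertical axis, linear, starting at 0) of each gene in every library; points are libraries, horizontal bars are group means, g1 and g2 are the SOX6 guides and ctrl is the non-targeting guide. Spry1, Spry4, Dusp4 and Dusp6 sit lower in the OL groups than in the OPC groups of both sets, while Etv4 is low in sorted OLs (1.91 to 3.23 TPM) and high elsewhere (108 to 219 TPM).

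The 250 bases before the transcription start are shown for 2 of the genes, because ERK is known to act on them partly through the repressor CIC, which leaves DNA when ERK is active and binds a short motif. RefSeq sequences (GRCm38.p6) were matched for 6 of the 10 genes. None was matched for Etv4, Spry4, Dusp4 or Egr1, so no motif was searched for in these genes. Capitals mark the motif letters TGAATGA or TGAATGG, on either strand. Both lines run 5′ to 3′ towards the gene, Dusp6 at chr10:99262981-99263230 (+) and an inner start of Etv5 at chr16:22438369-22438618 (-).
Dusp6: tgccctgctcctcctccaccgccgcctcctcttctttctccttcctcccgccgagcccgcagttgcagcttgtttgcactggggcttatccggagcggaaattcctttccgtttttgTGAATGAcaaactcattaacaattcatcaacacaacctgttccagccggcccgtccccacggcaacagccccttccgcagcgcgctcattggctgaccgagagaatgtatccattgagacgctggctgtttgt
Etv5: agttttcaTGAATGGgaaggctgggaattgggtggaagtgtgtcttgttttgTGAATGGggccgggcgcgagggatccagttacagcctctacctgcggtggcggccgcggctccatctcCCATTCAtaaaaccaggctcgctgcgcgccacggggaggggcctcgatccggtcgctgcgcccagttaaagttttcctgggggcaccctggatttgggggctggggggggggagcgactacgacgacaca

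The Dusp6 window held 1 match of TGAATGA, which begins 133 bases before the start. The Etv5 window held 3 matches of TGAATGG, which begin 242, 198 and 130 bases before the start, and this second spelling was added after that window had been read. Neither spelling occurred in the windows of Spred1, Spry1, Spry2, either Etv1 start or the outer Etv5 start, so the windows shown are those with a match. Only these spellings were searched, so other forms of the motif were not counted or marked in any window, including those shown. TGAATGA occurred in 3.14% and TGAATGG in 2.98% of 32851 promoter windows of the same length. No member window held CCGGAA (a core bound by ETS factors, in 12% of windows), TGANTCA (the AP-1 motif, 6.75%), TGACG (part of the cyclic AMP response element, 17.8%) or the CArG box bound by SRF (1.47%), searched on both strands with overlaps allowed. A match is a string of letters and not a measured site.

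The first comparison asks what SOX6 targeting did to these genes in OLs. Messenger RNA of 2 Sprouty genes, Spry1 and Spry2, and of Egr1 was higher in SOX6-targeted OLs, by 1.61-fold, 1.26-fold and 1.68-fold over control OLs. No member was called lower. Of 9 members tested, 3 passed an adjusted p of 0.05 by the quasi-likelihood test of edgeR, all higher, and Etv5 was too low to test. Over all 13447 genes tested, 6.50% passed, 3.13% higher and 3.37% lower. With guide 1 alone 3 members passed, all higher, against 4.92% of genes (2.39% higher, 2.53% lower), and with guide 2 alone 2 passed, Spry1 and Egr1, against 4.44% (2.31% higher, 2.13% lower). The median log2 change was 0.277 over the 9 members and -0.000781 over all genes. Without guide 1 library B the count was 6 members, with 2337 genes called in all, against 874 with every library. Without control library A, B or C the member count was 1, Spry1, each time, with 371, 353 and 407 genes called in all.

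Spry1 encodes an inhibitor that acts between receptor tyrosine kinases and ERK. It had 96.9, 111 and 101 CPM (counts scaled to library size) in OLs with guide 1, 92.3, 95.6 and 93.8 CPM with guide 2, and 61.1, 57.2 and 64.3 CPM in control OLs. Every targeted library lay above every control library. The log2 change over both guides was 0.69 (SE 0.0722, 95% interval 0.52 to 0.85, adjusted p = 0.000805 by edgeR), and with guide 1 and guide 2 alone it was 0.76 (adjusted p = 0.00128) and 0.62 (adjusted p = 0.00393). The call held in each of 17 alternative settings, with log2 changes of 0.619 to 0.734 and an adjusted p of at most 0.00997.

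Spry2, a second Sprouty inhibitor, had 184, 220.1 and 203 CPM with guide 1, 201, 197 and 199.9 CPM with guide 2, and 157, 160.4 and 159 CPM in control OLs. The targeted and control libraries did not overlap. Its log2 change was 0.34 (SE 0.0676, 95% interval 0.18 to 0.49, adjusted p = 0.0204 by edgeR). The call was lost without any 1 control library (adjusted p = 0.11, 0.106 and 0.104 without A, B and C) or any 1 guide 2 library (0.0715, 0.0567 and 0.0698) or with a block by library letter (0.0504), while the log2 change stayed at 0.267 to 0.365 over 17 settings.

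Egr1, an immediate early transcription factor gene that ERK induces through SRF and its partners, had 16.1, 16.2 and 18.9 CPM with guide 1, 15.8, 22.2 and 16.4 CPM with guide 2, and 10.3, 10.3 and 10.8 CPM in control OLs. No targeted library fell into the control range. The log2 change was 0.75 (SE 0.146, 95% interval 0.41 to 1.08, adjusted p = 0.018 by edgeR), 0.71 with guide 1 (adjusted p = 0.0457) and 0.79 with guide 2 (adjusted p = 0.0311). Leaving out control library A, B or C ended the Egr1 call (adjusted p = 0.095, 0.0969 and 0.0796).

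Spry4, the third Sprouty gene, did not pass the threshold. It had 35.6, 33.5 and 43.3 CPM with guide 1, 40.5, 40.0 and 34.9 CPM with guide 2, and 31.3, 28.9 and 29.1 CPM in control OLs, a log2 change of 0.35 (SE 0.107, adjusted p = 0.101 by edgeR). Its CPM ranges did not overlap, but on the TPM scale guide 1 library B, at 6.25 TPM, lay below the control libraries (7.19 to 7.78 TPM). Without that library the change was 0.38 and passed (adjusted p = 0.0186). Spred1, whose protein restrains RAS together with neurofibromin, had a log2 change of -0.14 (95% interval -1.10 to 0.82), too wide to place.

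Among the phosphatases, Dusp6, which removes phosphate from ERK in the cytoplasm, had 97.0, 97.6 and 96.3 CPM with guide 1, 91.0, 86.7 and 90.7 CPM with guide 2, and 80.9, 91.2 and 84.7 CPM in control OLs. The guide 2 and control ranges overlapped, and all guide 1 libraries lay above the control libraries in CPM. Over both guides the Dusp6 log2 change of 0.12 had a 95% interval of -0.03 to 0.26 (adjusted p = 0.383 by edgeR). With guide 1 alone it was 0.18 (95% interval 0.01 to 0.35, adjusted p = 0.241), and with guide 2 alone 0.06 (-0.11 to 0.23, adjusted p = 0.827). Dusp4, a nuclear phosphatase, had 1.91 to 4.13 CPM over the 6 targeted libraries and 2.44 to 3.24 CPM in control OLs, and its log2 change was 0.15 (95% interval -0.43 to 0.72, adjusted p = 0.826).

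Neither of the tested ETS factor genes, Etv4 and Etv1, passed. Etv4 had 239, 290.3 and 227 CPM with guide 1, 223, 221 and 224 CPM with guide 2, and 181, 201 and 204 CPM in control OLs, a log2 change of 0.28 (SE 0.0862, adjusted p = 0.108 by edgeR). In TPM the ranges overlapped, with 163 to 219 TPM over the targeted libraries and 164 to 193 TPM in control OLs. Etv1 had 113, 47.2 and 133 CPM with guide 1, 127, 131 and 125 CPM with guide 2, and 185, 186 and 183 CPM in control OLs. Every targeted library was below every control library, but guide 1 library B was far from the others, and the log2 change of -0.73 (SE 0.255) had an adjusted p of 0.155 by edgeR. Without that library the changes were -0.57 for Etv1 (adjusted p = 9.50e-05) and 0.22 for Etv4 (adjusted p = 0.00995). With a transcript length offset as well, Etv1 stayed past the threshold (-0.50, adjusted p = 0.00613) and Etv4 did not (0.23, adjusted p = 0.11).

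**Figure D2:**
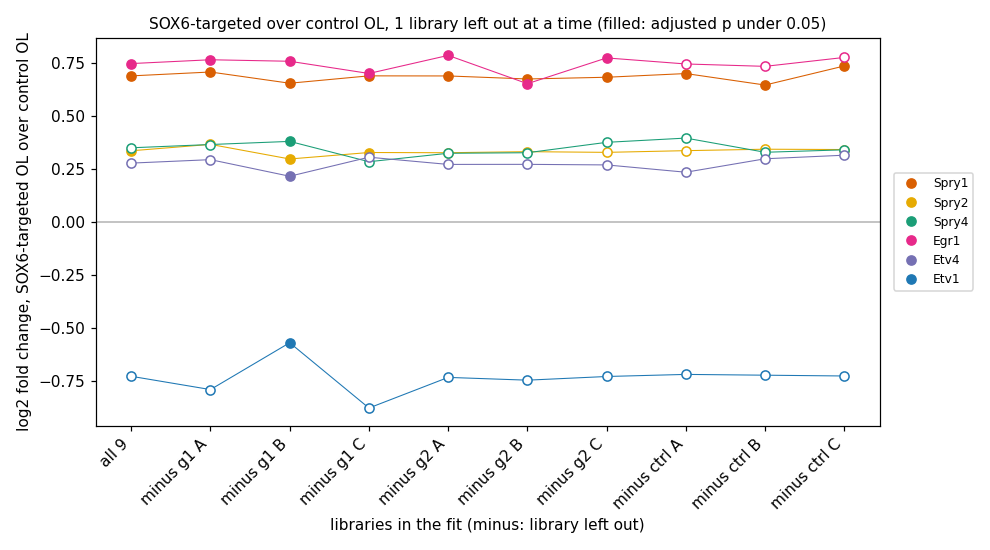
Log2 fold change of SOX6-targeted over control OLs (vertical axis) for 6 genes, with all 9 libraries and with 1 library left out at a time (horizontal axis); filled points have an adjusted p under 0.05 by edgeR. Spry1 is filled throughout, and leaving out guide 1 library B fills all 6 genes, with Etv1 below 0 and the others above it.

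In the authors' deposited table, whose fold changes run as control over targeted, the same 3 genes had an adjusted p under 0.05 in OLs, with log2 values of -0.70 for Spry1 (adjusted p = 1.95e-10), -0.34 for Spry2 (adjusted p = 0.000851) and -0.72 for Egr1 (adjusted p = 3.38e-05). The authors' deposited table gave Spry4 -0.35 (adjusted p = 0.0568), Etv4 -0.24 (adjusted p = 0.144) and Etv1 0.65 (adjusted p = 0.279). Guide 2 over guide 1 called 0 of 13447 genes in OLs by edgeR, and so 0 of 9 members, with 0 at an unadjusted p under 0.05. In OPCs it called 0 of 13358 genes and 0 of 10 members by edgeR, with 3 at an unadjusted p under 0.05. DESeq2 called 0 members and 29 genes in all for guide 2 over guide 1 in OLs. In OPCs it called 1 member, Etv4, and 107 genes in all.

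Marker lists of other cell states moved with targeting in OLs, and their part in these results was not tested. Summed astrocyte markers were at 7881 to 9223 CPM with guide 1, 8389 to 8520 CPM with guide 2 and 6988 to 7289 CPM in control OLs, with 1 of 11 tested genes higher and none lower, none at 0 and Apoe the most abundant. Summed markers of dividing cells were at 321 to 390 CPM (guide 1), 309.5 to 317 CPM (guide 2) and 539 to 545 CPM (control), with 5 of 8 genes lower. Summed OL markers were at 3316 to 3527 CPM (guide 1), 3920 to 4030 CPM (guide 2) and 4629 to 4764 CPM (control), with 5 of 11 genes higher and 2 lower. Summed OPC markers were at 9758 to 11561.5 CPM (guide 1), 11533 to 11857 CPM (guide 2) and 10965 to 11147 CPM (control). Of these 8 genes 5 were lower and none higher. Summed neuronal markers were at 309 to 484 CPM (guide 1), 509.7 to 533 CPM (guide 2) and 509.9 to 539 CPM (control), with 3 of 8 genes lower. The Schwann cell list was at 163 to 176 CPM (guide 1), 195 to 197 CPM (guide 2) and 283 to 301 CPM (control), with 1 of 5 genes lower and Sox10, which OLs also express, the most abundant. In such bulk RNA, fewer cells of a type and less RNA per cell cannot be told apart. All 8 microglial markers averaged under 1 CPM in each group.

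In OPCs, kept with FGF2 and PDGFA, targeting changed no member past the threshold. Of 10 members tested, 0 passed by edgeR and 2 had an unadjusted p under 0.05. By edgeR, 3.59% of 13358 genes passed over the whole table (1.95% higher, 1.63% lower). DESeq2 called 1 member, Egr1, and 816 genes in all. With guide 1 alone and guide 2 alone, 0 members passed by edgeR, against 2.78% and 2.04% of genes, and 4 and 2 members had an unadjusted p under 0.05. DESeq2 called 2 members (Egr1 and Spry4) with guide 1 and 0 with guide 2, and 803 and 515 genes in all. The median log2 change was 0.0422 over the members and -0.00492 over all genes. Spry1 had 258 and 272 CPM with guide 1, 280.0, 284 and 265 CPM with guide 2, and 277, 264 and 261 CPM in control OPCs. These ranges overlapped, and the 95% interval of its log2 change, -0.05 to 0.13, lay below the value in OLs.

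Egr1 was the member nearest to a call in OPCs. It had 40.5 and 39.5 CPM with guide 1, 39.8, 37.6 and 33.3 CPM with guide 2, and 29.3, 30.2 and 33.6 CPM in control OPCs, with guide 2 and control overlapping. The log2 change of 0.33 (SE 0.0781) had an adjusted p of 0.0623 by edgeR, and 0.0304 to 0.278 over 15 alternatives. Spry4 had 132 and 131 CPM with guide 1, 145, 162 and 148 CPM with guide 2, and 168, 149 and 166 CPM in control OPCs, a log2 change of -0.17 (SE 0.0555, adjusted p = 0.165). Dusp6 had 353 to 411 CPM over the 5 targeted libraries and 385 to 438 CPM in control OPCs, and Spry2 had 235 to 261 CPM and 228 to 250.4 CPM. The 95% intervals of the log2 change were -0.19 to 0.03 for Dusp6 and -0.04 to 0.15 for Spry2, and Etv1 and Etv4 had intervals of -0.09 to 0.19 and -0.13 to 0.05. Etv5 had 1.62, 1.64 and 2.71 CPM with guide 2, 0.172 and 0.661 CPM with guide 1, and 0.358, 1.31 and 0.212 CPM in control OPCs. It passed the count filter in OPCs through its guide 2 counts, so its fold change of guide 2 over control carries no weight (adjusted p = 0.371 by edgeR).

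**Figure D3:**
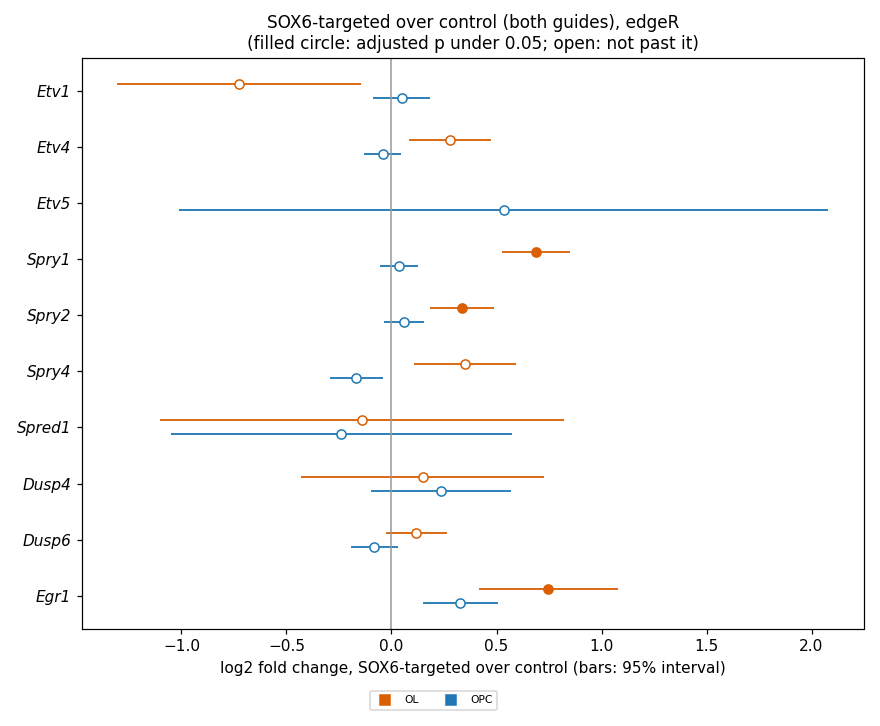
Log2 fold change of SOX6-targeted over control cells for each gene (horizontal axis; bars are 95% intervals), in OLs and OPCs, by edgeR; filled circles have an adjusted p under 0.05. Spry1, Spry2 and Egr1 are filled and above 0 in OLs, and no gene is filled in OPCs.

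The response to targeting was then compared between stages, as the change in OLs minus the change in OPCs in 1 fit. Spry1 and Spry4 differed, each with a more positive response in OLs. The test called 2 of 10 members, both higher, against 1.69% of 14352 genes (0.920% higher, 0.773% lower). For Spry1 the difference was 0.68 on the log2 scale (SE 0.0811, adjusted p = 0.00059 by edgeR), and the call held in each of 24 alternatives (0.574 to 0.714). For Spry4 it was 0.54 (SE 0.117, adjusted p = 0.0314) in the fit over both stages. The Spry4 call held in 9 of 24 alternatives and was lost with library totals (adjusted p = 0.129), without a count filter (0.0522), with a transcript length offset (0.0616), without any 1 control OL library (0.0688, 0.107 and 0.107 without A, B and C), without guide 2 OL library A or B (0.066 and 0.0537), without control OPC library A or C (0.0969 and 0.087), with a block by library letter (0.0657), without either guide 1 OPC library (0.086 and 0.0887) and without guide 2 OPC library A or C (0.0657 and 0.0659). Spry2 (0.30, adjusted p = 0.093), Etv4 (0.34, adjusted p = 0.127), Egr1 (0.44, adjusted p = 0.256) and Etv1 (-0.75, adjusted p = 0.326) did not pass. Without guide 1 OL library B, 5 members passed, with Etv4, Spry2 and Etv1 added. All genes passing then numbered 638, against 243 with every library. DESeq2 with all libraries called 4 members, Spry1, Spry4, Spry2 and Etv4, and 517 genes in all. For Egr1, called in OLs and not in OPCs by edgeR, no setting called a difference between the stages, and for Spry2 3 of 24 did.

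The next question was how the members differed between stages, with OLs kept without FGF2 and PDGFA and OPCs kept with them. Most members were lower in OLs, with Spry4 5.41-fold, Dusp6 4.71-fold and Spry1 4.40-fold lower in control OLs than in control OPCs. By edgeR, 7 of 10 members passed between control OLs and control OPCs, 6 lower and 1 higher. Over all 14352 genes 43.0% passed, 21.4% higher and 21.6% lower. The median log2 change was -1.75 over the members and 0.021 over all genes. Stage, medium and the table in which a library was quantified changed together, so their parts cannot be told apart.

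Among the Sprouty genes, Spry1 stood at 60.9 ± 3.59 CPM in control OLs and 268 ± 8.56 CPM in control OPCs (SD, n = 3 each), a log2 change of -2.14 (SE 0.0674, adjusted p = 8.23e-12 by edgeR). Spry4 had 31.3, 28.9 and 29.1 CPM in control OLs, against 168, 149 and 166 CPM in control OPCs (log2 -2.44, SE 0.0983). Spry2 fell less: it had 157, 160.4 and 159 CPM in control OLs and 250.4, 239 and 228 CPM in control OPCs (log2 -0.59, 95% interval -0.73 to -0.45). None of these ranges overlapped. The interval of Spry2 did not meet those of Spry1 (-2.28 to -1.99) or Spry4 (-2.65 to -2.23), although the difference between the genes was not itself tested.

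Both phosphatases fell. Dusp6 had 80.9, 91.2 and 84.7 CPM in control OLs and 438, 387 and 385 CPM in control OPCs (log2 -2.24, SE 0.0674, adjusted p = 6.11e-12 by edgeR). Dusp4 had 2.44, 2.52 and 3.24 CPM in control OLs and 8.82, 10.4 and 11.9 CPM in control OPCs (log2 -1.92, SE 0.223, adjusted p = 6.11e-06). Egr1 fell as well, to 10.5 ± 0.293 CPM in control OLs, against 31.1 ± 2.27 CPM in control OPCs (log2 -1.57, SE 0.13, adjusted p = 1.77e-07). These 6 calls held in each of 25 alternatives.

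The ETS factor genes are given one by one. Etv4 had 181, 201 and 204 CPM in control OLs and 218, 218 and 202 CPM in control OPCs, ranges that overlapped, with a log2 change of -0.12 (95% interval -0.30 to 0.05, adjusted p = 0.231 by edgeR). Etv1 was the member that rose, with 185, 186 and 183 CPM in control OLs and 116, 116 and 130.2 CPM in control OPCs (log2 0.62, SE 0.238). Its adjusted p of 0.04999 lay at the threshold. The Etv1 call held in 6 of 25 alternatives, and with a transcript length offset the change was 0.35 (adjusted p = 0.383). Leaving out any 1 of the control OPC or control OL libraries ended it (adjusted p = 0.0708 to 0.122), whereas without guide 1 OL library B, which belongs to neither group but shares the estimate of spread, the adjusted p was 1.14e-06. Etv5 (log2 -2.80, 95% interval -6.01 to 0.40) and Spred1 (-0.36, -1.33 to 0.60) could not be placed.

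In SOX6-targeted cells, 7 of 10 members also passed between OLs and OPCs, 6 lower and 1 higher, against 52.4% of all genes (27.2% higher, 25.2% lower). The log2 changes of OLs over OPCs in targeted cells were -2.01 for Dusp6, -1.99 for Dusp4, -1.90 for Spry4, -1.46 for Spry1, -1.13 for Egr1 and -0.29 for Spry2. Etv4 was higher by 0.22 (SE 0.0599, adjusted p = 0.0066 by edgeR), and Etv1 had -0.14 (95% interval -0.52 to 0.25). The calls of these 7 genes held in each of 25 alternatives. These values share no library with those of control cells, and the test of their difference is the one given above, which Spry1 and Spry4 passed.

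In sorted cells the members were lower in OLs as well, and here Etv4, for which no difference was shown in the unsorted control cells, had the most negative log2 change. With a pseudocount of 0.1 in place of 1, the most negative was Spry4 (-6.55, with -5.80 for Etv4). By limma on log2(TPM + 1), 8 of 9 members passed and all 8 were lower in sorted OLs. Over 11901 genes 60.2% passed, 26.3% higher and 33.8% lower. The median log2 change was -2.59 over the members and -0.137 over all genes. Changes on this scale understate those of genes with low TPM. Sorted OPCs were kept with FGF2 and PDGFA and sorted OLs were not, so the parts of stage and medium cannot be told apart.

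Etv4 had 3.23, 2.07 and 1.91 TPM in sorted OLs and 148, 155 and 108 TPM in sorted OPCs (log2 -5.35, SE 0.204, adjusted p = 7.58e-06 by limma). In the cells of the SOX6 experiment it stood at 179 ± 14.9 TPM in control OLs and 170.4 ± 19.6 TPM in control OPCs. The sorted and unsorted OLs differed in purification and in T3, and a test across these tables was not made. Etv1 had 29.5, 11.9 and 16.4 TPM in sorted OLs and 37.0, 33.7 and 39.2 TPM in sorted OPCs (log2 -0.98, SE 0.309, adjusted p = 0.0328). That call held in 4 of 11 alternatives, with an adjusted p of 0.00247 to 0.0939. Etv5 was listed at 0 in all 3 sorted OL libraries and at 0.905, 0.963 and 2.66 TPM in sorted OPCs, and it did not reach the filter.

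Of the inhibitors, Dusp6 had 1.82, 1.75 and 2.16 TPM in sorted OLs and 86.7, 61.5 and 51.2 TPM in sorted OPCs (log2 -4.50, SE 0.201, adjusted p = 1.27e-05 by limma). Spry4 had 0.168, 0.174 and 0.133 TPM in sorted OLs and 29.0, 24.5 and 19.6 TPM in sorted OPCs (log2 -4.44, SE 0.151). Spry1 had 2.26, 1.46 and 2.82 TPM in sorted OLs and 72.9, 63.5 and 50.4 TPM in sorted OPCs (log2 -4.32, SE 0.211). None of these 3 genes had overlapping groups. Spry2 fell by less, with 14.4, 15.8 and 17.6 TPM in sorted OLs and 107, 97.2 and 99.7 TPM in sorted OPCs (log2 -2.59, SE 0.107). Its mean in sorted OLs was the highest of the 10 genes other than Etv1. The ranges of Spry2, Etv1 and Egr1 overlapped there, so their order is not fixed by these libraries. Dusp4 had 0.640, 0.281 and 1.04 TPM in sorted OLs and 2.70, 2.48 and 2.25 TPM in sorted OPCs (log2 -1.10, SE 0.181).

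Egr1 had 13.2, 16.5 and 6.32 TPM in sorted OLs and 51.1, 57.2 and 21.5 TPM in sorted OPCs, with library C the lowest in both groups (log2 -1.75, SE 0.471, adjusted p = 0.0189 by limma). The groups did not overlap, and the call was lost without sorted OPC library A or B (adjusted p = 0.0639 and 0.0632). Egr1 was higher in sorted OPCs, at 43.3 ± 19.1 TPM, than in control OPCs of the SOX6 experiment, at 10.4 ± 1.80 TPM (SD, n = 3 each), with no test across the tables. Spred1 had 0.632 ± 0.445 TPM in sorted OLs and 1.21 ± 0.243 TPM in sorted OPCs and did not pass (log2 -0.47, adjusted p = 0.113).

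Cell cycle and astrocyte markers also moved between the stages, and their part in these results was not tested. Summed markers of dividing cells were at 139 to 164 TPM in sorted OLs and 1470.4 to 1729 TPM in sorted OPCs, and at 539 to 545 CPM in control OLs and 3141 to 3469 CPM in control OPCs, with all 8 genes lower in both comparisons. Summed astrocyte markers were at 2085 to 4154 TPM in sorted OLs and 585 to 655 TPM in sorted OPCs, with 4 of 10 genes higher and 3 lower, and at 6988 to 7289 CPM in control OLs and 1616 to 1780.2 CPM in control OPCs, with 8 of 11 higher. Summed neuronal markers were at 58.4 to 82.7 TPM in sorted OLs and 51.5 to 64.7 TPM in sorted OPCs (1 of 6 genes higher, 3 lower), and at 509.9 to 539 CPM in control OLs and 224 to 276 CPM in control OPCs (4 of 9 higher). No astrocyte marker was at 0 in sorted or control OLs. Summed OPC markers were at 10965 to 11147 CPM in control OLs and 9814 to 10821 CPM in control OPCs (5 of 8 genes higher, 3 lower). In sorted OLs they were at 1802 to 1807 TPM, against 1845 to 2258 TPM in sorted OPCs (2 of 8 higher, 5 lower). Of the OL markers, 10 of 11 were higher in control OLs and 10 of 10 in sorted OLs.

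**Figure D4:**
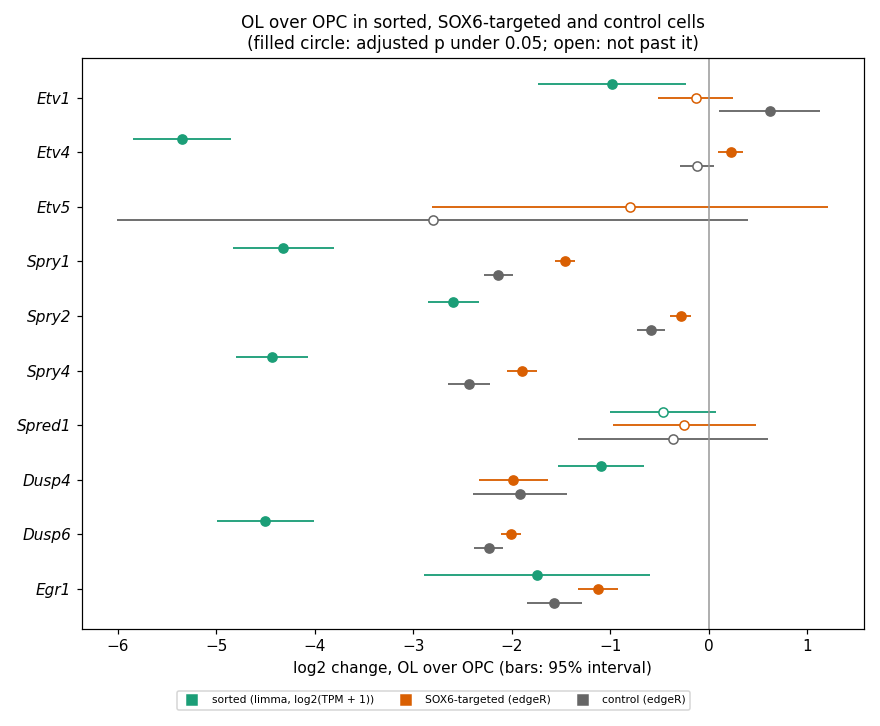
Log2 change of OLs over OPCs for each gene (horizontal axis; bars are 95% intervals) in sorted cells (limma on log2(TPM + 1)) and in SOX6-targeted and control cells (edgeR); filled circles have an adjusted p under 0.05. Spry1, Spry2, Spry4, Dusp4, Dusp6 and Egr1 are filled and below 0 in all 3, whereas Etv4 is at -5.35 in sorted cells and at 0.22 and -0.12 in targeted and control cells.

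Over all 8 groups, the order of Spry1 levels was guide 1 OPCs (129 ± 5.29 TPM, n = 2), guide 2 OPCs (129 ± 3.96 TPM), control OPCs (122 ± 4.20 TPM), sorted OPCs (62.3 ± 11.3 TPM), guide 1 OLs (46.8 ± 4.37 TPM), guide 2 OLs (46.2 ± 1.25 TPM), control OLs (30.7 ± 1.92 TPM) and sorted OLs (2.18 ± 0.686 TPM; n = 3 where not given). Within this order, the neighbours whose library ranges overlapped were the 3 OPC groups of the SOX6 experiment and the 2 targeted OL groups. For Dusp6, the guide 1, guide 2 and control OLs overlapped, at 41.8 ± 3.17, 40.8 ± 4.03 and 39.2 ± 1.2 TPM. Guide 2 OPCs, at 157 to 172 TPM, overlapped both other OPC groups of the SOX6 experiment, while guide 1 OPCs, at 158 and 162 TPM, lay below control OPCs, at 163 to 177 TPM.

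The genes most like the members were sought over the 8 group means of log2(TPM + 1), each gene centred on its own mean. The profile averaged over the 10 members was 0.733 in control OPCs and -2.28 in sorted OLs. The nearest other genes were Nkain1 (root mean square difference 0.0757), Ifitm2 (0.11), Plxnb2 (0.111), Vim (0.125) and Smyd5 (0.136). The members themselves lay further from their own mean profile, from 0.289 for Spry2 to 1.15 for Egr1 and 1.14 for Etv4. This is a description over 8 groups that share libraries with every comparison above.

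The rest of the pathway was described by lists chosen with earlier results of these data known. These lists were tested only with every library, guide 1 OL library B included. In SOX6-targeted OLs, where 6.50% of all genes passed, 1 of 17 other feedback genes tested was higher and 1 lower: Dusp10, a phosphatase that acts mainly on the stress kinases, rose to 14.8 ± 3.29 CPM with guide 1 and 13.03 ± 0.424 CPM with guide 2, against 7.65 ± 1.33 CPM in control OLs (log2 0.86, adjusted p = 0.0232 by edgeR), and Flrt3, a membrane partner of FGF receptors, fell by 0.51 on the log2 scale. Of 14 receptors 1 was higher, the FGF receptor gene Fgfr1 (198 ± 12.2 CPM with guide 1 and 203 ± 11.6 CPM with guide 2, against 157 ± 1.61 CPM in control OLs). Of 22 genes of the cascade, 2 were higher, the MEK gene Map2k1 (log2 0.32) and the adaptor gene Gab1 (0.40). Of 8 ligands 0 passed by edgeR.

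Of 10 other outputs of ERK tested in OLs, 1 was higher and 2 lower, with a median log2 change of 0.53, since most of those that did not pass had values above 0. Phlda1 rose by 0.50 on the log2 scale. The cyclin D1 gene Ccnd1 fell to 36.4 ± 2.40 CPM with guide 1 and 46.5 ± 1.42 CPM with guide 2, against 102 ± 3.85 CPM in control OLs (log2 -1.32, adjusted p = 2.27e-05 by edgeR). Myc, a growth regulator, fell to 85.1 ± 10.5 CPM with guide 1 and 80.8 ± 0.760 CPM with guide 2, against 159.7 ± 5.16 CPM in control OLs (log2 -0.95). Of 14 other immediate early genes 1 was lower, the antiproliferative gene Btg2 (log2 -0.75), and of 13 other ETS, SRF or CIC genes 0 passed.

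In targeted OPCs, where 3.59% of all genes passed, 1 of 14 receptors was higher and 1 lower: Ntrk2, which binds BDNF and NT4, rose by 0.43 and Kit fell by 0.71 on the log2 scale. Map2k1 was the 1 cascade gene called of 22, higher by 0.22. Ccnd1 (-0.42), the immediate early gene Nr4a1 (-0.51) and the ETS gene Etv6 (0.50) were the single calls in their lists of 11, 17 and 15 genes. Of 17 other feedback genes and 9 ligands, 0 passed by edgeR.

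Between control OLs and control OPCs, 21.4% of all genes were higher and 21.6% lower. Of 14 receptors, 7 were higher and 3 lower. Pdgfra, the receptor for PDGFA, stood at 108 ± 7.66 CPM in control OLs and 21.9 ± 3.66 CPM in control OPCs (log2 2.30, adjusted p = 3.69e-05 by edgeR), and Fgfr1 at 157 ± 1.61 CPM and 248 ± 10.5 CPM (log2 -0.66). Of 17 other feedback genes 4 were higher and 7 lower, with a median log2 change of -0.0756. Of 11 other ERK outputs 6 were lower and 0 higher, among them Ccnd1 (-2.36), the ephrin receptor gene Epha2 (-2.28) and Myc (-0.91). Immediate early genes had 1 of 17 higher and 6 lower, among the lower Jun (-0.99) and Ier2 (-1.05).

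In sorted cells, 26.3% of all genes were higher and 33.8% lower. Of 13 receptors, 3 were higher and 7 lower. Pdgfra was at 0.906 ± 0.666 TPM in sorted OLs and 11.4 ± 3.27 TPM in sorted OPCs (log2 -2.74, adjusted p = 0.000637 by limma), opposite in direction to the unsorted cells. Fgfr2 rose to 73.0 ± 3.43 TPM in sorted OLs, against 10.7 ± 1.55 TPM in sorted OPCs. Of 16 other feedback genes, 7 were higher and 6 lower, with Dusp10 at 2.19 and Il17rd, an FGF receptor inhibitor, at -1.78 on the log2 scale. Of 7 other ERK outputs 5 were lower, among them Ccnd1 (-5.36), while the immediate early gene Fos was higher (1.40).

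**Figure D5:**
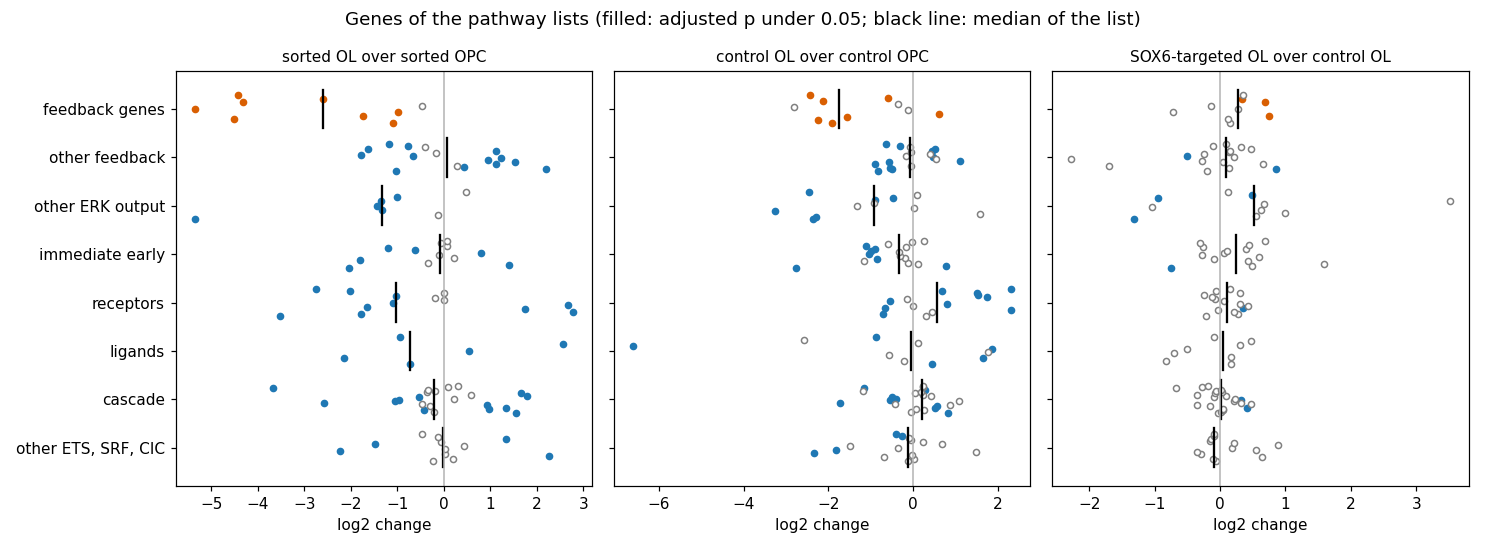
Log2 change (horizontal axis) of every tested gene of the pathway lists in 3 comparisons; each point is a gene, filled where the adjusted p was under 0.05 (members in orange, others in blue), and black lines are list medians. The median of the members is -2.59 in sorted cells, -1.75 in control cells and 0.277 after targeting in OLs, against 0.0642, -0.0756 and 0.0884 for the other feedback genes.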

How the data were processed

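Poly(A) RNA of 23 libraries was sequenced with a kit that does not mark strand, per the labels' protocols. The authors quantified transcripts with Salmon 0.14.1 and used DESeq2 and the mm10 build, per the submitters' processing notes. The sources used here do not give the version of DESeq2. The deposited tables hold estimated counts per gene for the SOX6 experiment and TPM for all libraries, and the authors deposited log2 fold changes and adjusted p-values of their own comparisons. The TPM of the sorted libraries sum to 78.4% to 79.6% of the scale.

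Estimated counts were rounded to whole numbers and tested with the quasi-likelihood test of edgeR 4.0.16 (R 4.3.3), with TMM scaling and genes kept by filterByExpr (minimum count 10, minimum total 15). OPCs and OLs were fitted separately for targeting, with both guides averaged, and together for stage and for the difference in response. CPM of the members came from 1 TMM scaling of all SOX6 experiment libraries. For sorted cells, limma 3.58.1 compared log2(TPM + 1) over genes that reached 1 TPM in at least 3 libraries. P-values were adjusted over all genes (Benjamini-Hochberg) with a threshold of 0.05, and intervals are 95%. DESeq2 1.42.0 was an alternative. The tests of targeting over both guides, of stage, of the difference in response and of sorted cells were run on simulated data. These data held no library that stood apart, and the tests of single guides and between guides were not simulated.

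The members and the lists were chosen with earlier results of these data known. All 10 members are named. Of each pathway list, up to 3 genes that rose most and up to 3 that fell most past the threshold, at a mean of 5 or more CPM or TPM in whichever group was higher, could be named. Astrocyte, OPC, OL, dividing cell, neuronal, Schwann cell and microglial markers are given where they touch a result. Marker sums are in CPM, or TPM for sorted cells.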

Additional observations from a re-analysis of the deposited data

Results flagged for a closer look

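The response to SOX6 targeting differed between OLs and OPCs for 2 members by a test of the difference itself, in 1 edgeR fit over both stages. The OL response minus the OPC response was 0.68 on the log2 scale for Spry1 (adjusted p = 0.00059) and 0.54 for Spry4 (adjusted p = 0.0314). All 6 targeted OL libraries lay above all 3 control OL libraries in CPM for both genes. In TPM, guide 1 OL library B (6.25) lay below the control OLs (7.19 to 7.78) for Spry4. Targeted and control OPCs overlapped for both, although for Spry4 guide 1 OPCs (131 and 132 CPM) lay below control OPCs (149 to 168 CPM). The Spry4 call held in 9 of 24 alternatives, and Spry4 did not pass in OLs alone (adjusted p = 0.101 by edgeR).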

How the results depend on the processing

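The columns carry letters, not the replicate numbers of the titles, and libraries with the same letter did not deviate together (correlations of their deviations from the group means were -0.0343 to 0.0909 in OLs, -0.0408 to 0.0259 in OPCs and 0.0111 to 0.0516 in sorted cells). A replicate block by letter, added after seeing the data, called 2 members in targeted OLs (Spry1 and Egr1), 0 in targeted OPCs, 1 for the difference in response (Spry1), 6 for stage in control cells (without Etv1), 7 in targeted cells and 8 in sorted cells. Over all genes it called 607, 274 and 183 for targeting in OLs, in OPCs and the difference. The number of members called changed most for targeting. In OLs it was 3, with 5 by DESeq2, 6 with both stages in 1 fit, 5 with a length offset and without guide 1 library B (chosen after seeing the data), and 1 to 6 with 1 library left out. In OPCs it was 0, with 1 by DESeq2 and 0 to 1 with 1 library left out, the 1 being Egr1 without control library C. For the difference in response it was 2, with 1 with library totals, without a count filter or with a length offset, 4 by DESeq2, and 1 to 5 with 1 library left out. The counts for stage stayed within 1.5 times.

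No result that changed sign had been called, and the lowest adjusted p among the 39 sign changes was 0.633. With a length offset, Etv1 had -0.00301 in targeted OPCs. With both stages in 1 fit, Spry1 with guide 1 in OPCs had -0.016 and Dusp4, guide 2 over guide 1 in OPCs, 0.00979. With library totals, Dusp6 with guide 2 in OLs had -0.0027. With a length offset and without guide 1 library B, guide 2 over guide 1 in OLs was 0.029 for Spry2 and -0.047 for Spry4. With 1 library left out, targeted OPCs ranged from -0.56 to 0.015 for Spred1 and -0.080 to 1.67 for Etv5. Guide 1 OPCs ranged from -1.80 to 0.55 for Etv5 and -0.017 to 0.057 for Spry1, and guide 2 OPCs from -0.28 to 0.30 for Spred1, -0.055 to 0.032 for Dusp6 and -0.060 to 0.042 for Etv1. Guide 2 over guide 1 in OPCs ranged from -0.0018 to 0.072 for Spry1 and -0.13 to 0.083 for Dusp4, and in OLs from -0.087 to 0.032 for Spry2, -0.045 to 0.15 for Spry4 and -0.099 to 0.17 for Egr1. Targeted OLs ranged from -0.38 to 0.068 for Spred1, guide 1 OLs from -0.34 to 0.041 for Dusp4, and targeted OLs over targeted OPCs from -0.28 to 0.030 for Etv1. The difference in response ranged from -0.17 to 0.070 for Dusp4 and -0.13 to 0.43 for Spred1. The cause of these changes was not tested.

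Over all genes, targeting in OLs called 874, with 1500 by DESeq2, 582 with a length offset, 1604 with both stages in 1 fit, 1582 with the offset and without guide 1 library B, and 353 to 2337 with 1 library left out. In OPCs it called 479, with 816 by DESeq2, 237 with a length offset, 254 with both stages in 1 fit and as few as 149 with 1 library left out. The difference in response called 243, with 517 by DESeq2, 104 with a length offset and 113 to 638 with 1 library left out. Spred1 and Etv5 were limited by their low counts.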
